A study of Drosophila melanogaster with 9 samples.

Results

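The 8 Hox genes of *Drosophila melanogaster* are *lab*, *pb*, *Dfd*, *Scr*, *Antp*, *Ubx*, *abd-A* and *Abd-B*. They were chosen by name, matched to the gene symbols of the deposited tables, and all 8 were found among the 13215 features that appear in at least 1 table. RNA was sequenced from tumors of the larval central nervous system (CNS) driven by *NΔecd*, a Notch receptor that lacks its extracellular domain and signals without ligand. In every group the transgene was switched on together with nuclear GFP in random clones, through a heat-shock flippase and an *actin* driver (*act-F/O*), so that cells of any CNS lineage could carry it. Primary tumors (N-FACS) were GFP-positive cells sorted from 150 larvae per replicate in the third instar, 4 days after clone induction. First allografts (N-T0) were tumor masses collected from 25 adult *w1118* females per replicate, 8 to 10 days after transplantation, and the allografts of transplantation stage 4 (N-T3) were the masses of 25 such hosts, 6 to 8 days after transplantation. Each group had 3 libraries, and no untreated CNS was among them.

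Hox genes encode homeodomain transcription factors that give segments their identity along the head-to-tail axis. They lie in the Antennapedia complex (ANT-C) and the Bithorax complex (BX-C), in the order of the body regions that they pattern. In the larval CNS their domains run from the gnathal neuromeres through the ventral nerve cord, most of the brain lobe lies in front of them, and both neural stem cells and neurons can express them. Trithorax group proteins keep the genes active where they were switched on, and Polycomb group proteins keep them silent elsewhere.

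The sources of the groups bear on every comparison with N-FACS. The methods give whole CNSs as the material that was dissociated and sorted for N-FACS, whereas single brain lobes, cut away from the rest of the CNS, were transplanted to start the allografts. The labels call both larval brains. The region of the CNS, the sorting and the growth in a host therefore changed together between N-FACS and the allografts, and their parts in a difference cannot be told apart. The allograft masses were not sorted and can hold host cells. In such bulk samples fewer cells of a type and less RNA per cell cannot be told apart either.

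As expression levels, the 3 tables give for each feature only the mean of the normalized counts over 6 libraries, but with up to 15 digits. Since each read adds a fixed step set by the size factor of its library, the whole reads of each library could be recovered from these means. The recovered libraries carry no replicate number, and the letters A, B and C only name the libraries of a group. Recovered reads ranged from 5166639 in N-T0 C, the shallowest library, to 15581527 in N-T0 B. The reads of every pair of libraries of a group differed by more than sampling noise, with a median chi-square over features 3.94 to 43.4 times that of noise alone. A normalized count is the reads divided by the size factor of the library, and a gene was called changed at a log2 fold change of at least 0.5 in size with a Benjamini-Hochberg adjusted p of at most 0.05 over all features tested (limma-voom). The replicates come from separate pools of larvae or hosts.

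The 5 genes of ANT-C lay between 6661427 and 6999228 on chromosome 3R in the BDGP6.54 annotation, and the 3 genes of BX-C between 16656623 and 16972236 on the same arm. *Antp* was the longest at 103.0 kb, and *Dfd* the shortest at 10.6 kb. All 8 are protein-coding, and all but *Dfd* lie on the minus strand. *Antp* shared 3978 of its 7945 exon bases with *CG46458* on the same strand, and *Ubx* shared 51 with an antisense RNA, neither of which is listed in the tables. The other 6 genes shared no exon base with another annotated gene, although the strand setting of the counting is not given in the sources used here.

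In the primary tumors, Hox transcripts were detected from both complexes, and in the allografts almost all of them were missing. The 8 genes together had 5891 reads in N-FACS, 33 in N-T0 and 14 in N-T3. By library the sums were 2200, 2303 and 1388 reads in N-FACS, 9, 10 and 14 reads in N-T0, and 4, 3 and 7 reads in N-T3. Of the 48 allograft values, 8 genes in 6 libraries, 27 were 0 and the highest was 5 reads. Per 1000000 recovered reads, the Hox genes held 109.0 to 202.0 reads in N-FACS, 0.642 to 2.71 in N-T0 and 0.304 to 0.741 in N-T3.

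**Figure D1:**
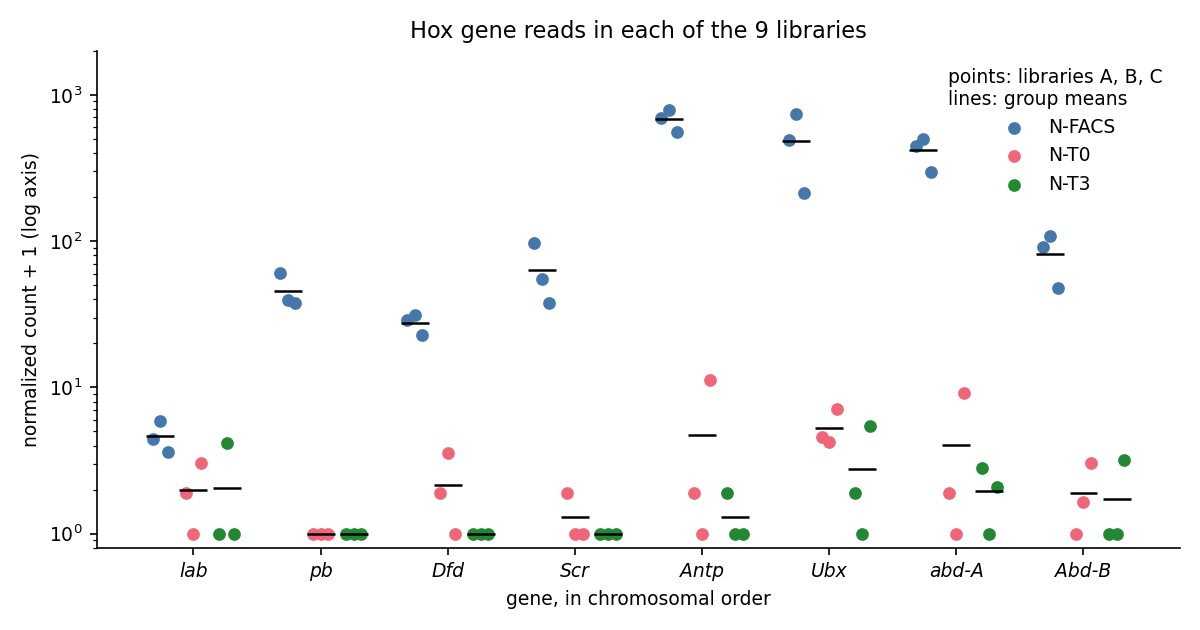
Normalized count plus 1 of each Hox gene on a log axis, with a point for each of the 9 libraries and a line at each group mean. For *Antp* the N-FACS libraries sit between 553.13 and 786.13 normalized counts and no allograft library is above 10.17. Only for *lab* do the points of N-FACS and N-T3 overlap.

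N-T0 was compared with N-FACS to ask what had changed by the first allograft. Of the 8 Hox genes, 7 were called lower and none higher, where 15.5% of the 12449 features tested were called lower and 13.1% higher. All 8 genes were lower in every N-T0 library than in every N-FACS library, which held for 24.0% of features. The median log2 fold change over the 8 genes was -6.34, or -6.25 with *pb*, which had no read in N-T0, at the bound set by 3 reads in the group, beside -0.01 over all features tested. A log2 fold change of -5 or lower was fitted for 6 of the 8 genes and for 2.53% of features.

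N-T3 was compared with N-FACS to ask the same of an advanced tumor. Again 7 of the 8 were called lower and none higher, where 17.8% of the 12531 features tested were called lower and 17.3% higher. The libraries of N-T3 and N-FACS did not overlap for 7 genes, with every N-T3 library below, as for 27.4% of features. The median log2 fold change was -6.64, or -6.2 with *pb*, *Dfd* and *Scr* at their bounds, beside 0.02 over all features, and 7 genes were at -5 or lower beside 3.18% of features. Both comparisons use the same N-FACS libraries, so they are not independent of each other. All 8 genes passed the minimum of 10 reads over 6 libraries through their reads in N-FACS.

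**Figure D2:**
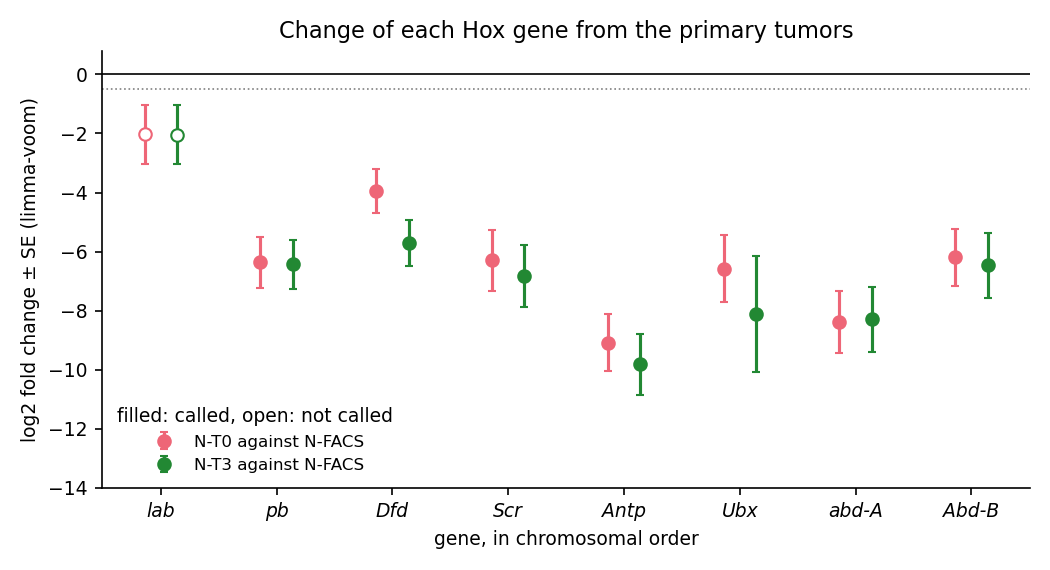
Fitted log2 fold change with its standard error (limma-voom, 3 libraries in each group) of each Hox gene in both allograft stages against N-FACS. Filled points were called and open points were not, and the dotted line marks a log2 fold change of -0.5. Every gene but *lab* is called in both comparisons, from -3.94 for *Dfd* in N-T0 to -9.82 for *Antp* in N-T3. The fitted value of a gene with no read in a group depends on the prior count.

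*Antp*, which specifies thoracic segments and gives the largest fall of the 8, had 803, 800 and 635 reads in N-FACS libraries A, B and C. It had 1, 0 and 5 reads in N-T0 and 1, 0 and 0 in N-T3. The groups were far apart, with the lowest N-FACS library at 553.13 normalized counts and the highest allograft library, N-T0 C, at 10.17. The log2 fold change was -9.08 ± 0.98 (SE, limma-voom adjusted p = 0.00028) in N-T0 and -9.82 ± 1.03 (adjusted p = 7.1e-05) in N-T3. From the summed reads the level in N-T0 was 350.0-fold lower, with an exact 95% counting interval of 161.0 to 955.0. Only 2 features of the 12449 tested had a lower fitted value than *Antp* in N-T0, where it ranked 3, and in N-T3 it ranked 9 of 12531. These intervals cover counting error only.

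*Scr*, which acts in the labial and first thoracic segments, had 110, 55 and 42 reads in N-FACS, 1, 0 and 0 in N-T0 and none in N-T3. N-FACS A was the highest library, and the allograft libraries stood at or next to 0. The log2 fold change in N-T0 was -6.30 ± 1.03 (limma-voom adjusted p = 0.0018). In N-T3 *Scr* was called lower (limma-voom adjusted p = 0.00056). With its count of 0 set to a floor of 3 reads in the group, it was at least 61.0-fold lower. Bounds of this kind, here and below, take the N-FACS reads as exact and leave out the spread between libraries.

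The genes of the head segments had fewer reads to lose. *Dfd*, which acts in the mandibular and maxillary segments, had 32, 31 and 25 reads in N-FACS, 1, 4 and 0 in N-T0 and none in N-T3. Its fall in N-T0 was the smallest of the called genes, at -3.94 ± 0.74 (limma-voom adjusted p = 0.0037), and the summed reads gave a level 16.5-fold lower with an exact 95% interval of 6.82 to 52.1. In N-T3 it was called lower (limma-voom adjusted p = 0.00031) and at least 25.9-fold lower. *pb*, which acts in the maxillary and labial segments that form the adult mouthparts, had 68, 39 and 42 reads in N-FACS and none in any of the 6 allograft libraries. It was the only Hox gene without an allograft read. It was called lower in both (limma-voom adjusted p = 0.00077 in N-T0 and 0.00021 in N-T3), at least 46.6-fold and at least 43.9-fold.

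*lab*, the most anterior Hox gene, which acts in the intercalary segment and the adjoining part of the brain, was nearly absent everywhere. It had 4, 5 and 3 reads in N-FACS, 1, 0 and 1 in N-T0 and 0, 3 and 0 in N-T3. The 3 reads of N-T3 B reached the level of the lowest N-FACS library. The log2 fold changes of -2.03 ± 0.99 in N-T0 and -2.04 ± 0.99 in N-T3 did not pass the test (limma-voom adjusted p = 0.15 and 0.13). By the summed reads, the level was 5.63-fold lower in N-T0, with an exact 95% counting interval from 1.25 to 51.8, and 3.54-fold lower in N-T3, with an interval from 0.955 to 19.5. The first interval, which covers counting error only, leaves out equal levels and the second does not.

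*Ubx*, which acts in the third thoracic and first abdominal segments, had 564, 754 and 245 reads in N-FACS, 4, 5 and 3 in N-T0 and 1, 0 and 4 in N-T3. It varied most among the N-FACS libraries, by 3.47-fold from the lowest to the highest normalized count, and even so the lowest was 213.41 and the highest allograft library 6.10. The log2 fold change was -6.58 ± 1.14 (limma-voom adjusted p = 0.0024) in N-T0 and -8.11 ± 1.97 (adjusted p = 0.0076) in N-T3. Without N-T3 A the second call was lost, with a log2 fold change of -8.02 and an adjusted p of 0.064. By the summed reads *Ubx* was 122.0-fold lower in N-T0 (exact 95% interval 69.8 to 237.0) and 277.0-fold lower in N-T3 (118.0 to 853.0).

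*abd-A*, which acts in the middle abdominal segments, had 516, 510 and 342 reads in N-FACS, 1, 0 and 4 in N-T0 and 2, 0 and 1 in N-T3. It followed *Antp* in the size of its fall, with log2 fold changes of -8.40 ± 1.05 (limma-voom adjusted p = 0.00051) in N-T0 and -8.30 ± 1.09 (adjusted p = 0.00023) in N-T3. *Abd-B*, which acts in the posterior abdominal segments and the genitalia, had 103, 109 and 54 reads in N-FACS, 0, 1 and 1 in N-T0 and 0, 0 and 2 in N-T3. Its libraries did not overlap between N-FACS and the allografts, and its log2 fold changes were -6.20 ± 0.97 (limma-voom adjusted p = 0.0015) in N-T0 and -6.47 ± 1.09 (adjusted p = 0.00099) in N-T3. The order of the 8 falls was not tested, and the standard errors of neighbours in it overlap from *Antp* down to *Abd-B* in N-T0 and from *Antp* down to *Dfd* in N-T3.

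The Hox reads that remained were compared between N-T3 and N-T0. *Ubx* alone reached 10 reads over these 6 libraries, with 12 in N-T0 and 5 in N-T3. The libraries overlapped, from 3.22 to 6.10 normalized counts in N-T0 and from 0.00 to 4.41 in N-T3, and the log2 fold change of -1.55 ± 0.89 was not called (limma-voom adjusted p = 0.72). No feature of the 11938 was called in this comparison by limma-voom (0.0%), although 961 had an unadjusted p under 0.05, and limma-trend with a pseudocount of 0.5 called 2 lower and 1 higher. *Antp* had 6 reads in N-T0 and 1 in N-T3, a ratio of 5.71 with an exact 95% interval from 0.692 to 262.0, *Dfd* had 5 and 0, *abd-A* 5 and 3, and *lab* and *Abd-B* 2 each in N-T0 and 3 and 2 in N-T3. Genes other than *Ubx* were under the read minimum and were not tested. The exact 95% intervals of *abd-A* (0.308 to 10.2), *lab* (0.053 to 5.53) and *Abd-B* (0.0689 to 13.1) included equal levels, as did that of *Antp*. No interval was computed for *Dfd*, which had 0 reads in N-T3. Its ratio with the floor of 3 reads, 1.58, takes the 5 reads of N-T0 as exact and does not show a fall.

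Among the allograft libraries N-T0 C had the highest summed Hox level, 28.5 normalized counts beside 8.1 in N-T0 A and 6.4 in N-T0 B. It was also the highest N-T0 library in the summed markers of adult gut (626.3 normalized counts beside 127.5 and 173.4), trachea and epidermis (1445.7 beside 356.4 and 183.7), adult fat body (4723.5 beside 3093.0 and 3300.8), hemocytes (3680.4 beside 2699.8 and 2404.4) and ovary and eggshell (260.3 beside 134.7 and 98.6), and the lowest in those of muscle (95.6 beside 196.6 and 138.6). The hemocyte markers did not all follow their sum. *Hml* had 347 reads in N-T0 C beside 1048 in A and 1176 in B, and N-T0 C was lowest also after division by the size factors. *crq*, with 1025 reads beside 1220 and 1567, was highest in N-T0 C after that division. The size factors were 0.492 in N-T0 C, 1.114 in A and 1.552 in B. The summed glia markers were also highest in N-T0 C, at 7377.1 normalized counts beside 4090.5 in A and 3837.0 in B. Those of neural stem cells were lowest in N-T0 C, at 13892.1 beside 20990.3 and 19883.6. Those of neurons lay in between, at 459.5 beside 983.1 and 243.6. The part of host cells or of these cell types in the Hox reads of N-T0 C was not tested. Without N-T0 C the count of Hox genes called lower in N-T0 was still 7.

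Levels of different genes were compared in N-FACS per kb of exon, since longer transcripts gather more reads. *Ubx* was highest at 112.0 ± 61.6 normalized counts per kb (mean ± SD, n = 3), followed by *Antp* at 85.4 ± 14.8 and *abd-A* at 75.9 ± 19.2. The library ranges of these neighbours overlapped. The next gene, *Scr*, stood at 13.6 ± 6.63, and its highest library at 20.9 was below the lowest of *abd-A* at 54.4. *pb* at 12 ± 3.33, *Dfd* at 9.72 ± 1.61 and *Abd-B* at 6.89 ± 2.62 each overlapped the gene before it, and *lab* at 1.2 ± 0.38 lay below all of them. The genes of the thoracic and anterior abdominal domains thus held most of the Hox signal, 83.6%, 89.2% and 85.0% of the summed level per kb in N-FACS A, B and C. If the exons shared with *CG46458* were not counted, the level of *Antp* per kb would be higher than given here.

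**Figure D3:**
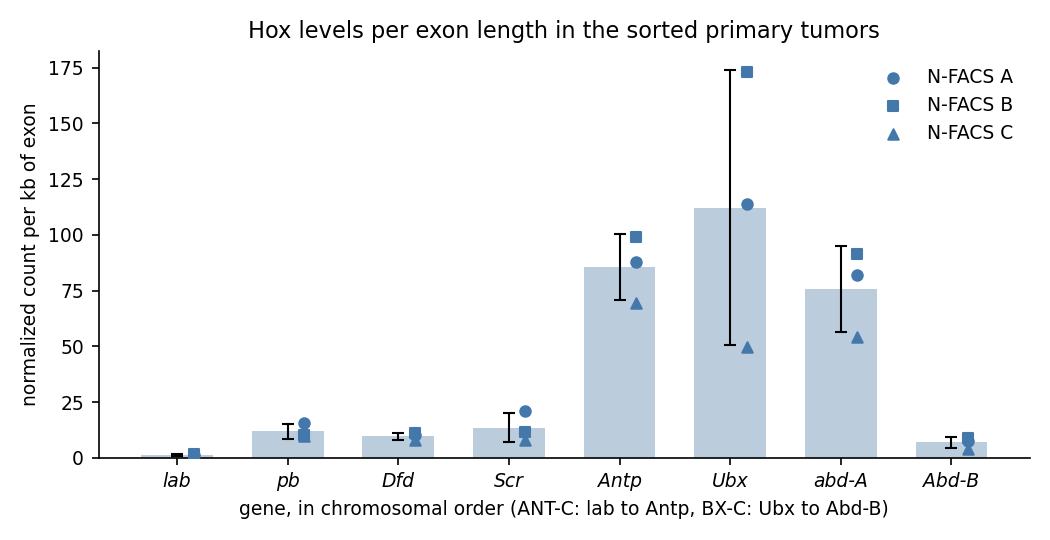
Normalized count per kb of exon of each Hox gene in N-FACS, in chromosomal order, with bars at the mean, error bars of 1 SD (n = 3) and a symbol for each library. *Ubx*, *Antp* and *abd-A* stand above the other 5 genes, and N-FACS C is the lowest library for all 8.

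Within N-FACS, library C had the lowest normalized count of each Hox gene, 8 of 8, and it was the lowest library for 42.0% of the 4671 features with a mean of 30 to 1000 normalized counts. The coefficient of variation over the 3 libraries was 54.8% for *Ubx*, 48.8% for *Scr*, 38.0% for *Abd-B* and 16.7% to 31.7% for the other 5, beside a median of 15.4% over those features. The summed level of the neuron markers was also lowest in N-FACS C, at 12551.3 normalized counts beside 15423.6 and 16307.3. The sum of the hemocyte markers was lowest there too, at 835.4 beside 943.9 and 974.8, but its members differed. *Pxn* had 99 reads in C beside 429 in A and 375 in B. *Hml* was highest in C, at 67.9 normalized counts beside 28.7 and 19.7, as was *NimC1*, at 14.8 beside 1.7 and 2.9. The summed glia markers stood at 5424.2 in N-FACS C beside 5387.5 in A and 6059.1 in B. Most of that sum came from *nrv2*, with 4610, 4043 and 5137 reads in A, B and C. *repo* stood at 200.3 normalized counts in C beside 633.1 in A and 777.3 in B. *moody*, *wrapper* and *Gs2* also had their fewest reads in C, and *alrm* had its fewest in A. The part of these cell types in the Hox levels was not tested.

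The features that lie between the Hox genes were examined by position. Of the 54 other annotated features inside ANT-C 15 are listed, and of the 20 inside BX-C 3 are. Inside ANT-C, 14 were tested in N-T0 against N-FACS and 11 were called lower, and in N-T3 11 of 15 were called lower, beside 15.5% and 17.8% of all features. All 3 other listed features of BX-C were called lower in both, and no feature inside either complex was called higher. Most of these features reached the minimum of 10 reads through N-FACS alone, so the counts describe the listed features only. *Ama*, an immunoglobulin-domain protein that promotes neuronal and glial adhesion, was the most abundant, with 2716, 3251 and 1674 reads in N-FACS, 46, 23 and 13 in N-T0 and 1, 2 and 0 in N-T3. Its groups did not overlap, and its log2 fold changes were -6.48 ± 0.60 (limma-voom adjusted p = 0.00018) in N-T0 and -10.76 ± 1.83 (adjusted p = 0.001) in N-T3. *lncRNA:CR45593* overlaps *Ama* on the other strand, so their reads may not be separable. The pair-rule gene *ftz* had 15, 4 and 12 reads in N-FACS and none in the allografts, at least 9.70-fold lower in N-T0.

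The noncoding RNAs of BX-C fell with its Hox genes. *lncRNA:bxd*, transcribed next to *Ubx*, had 15, 21 and 20 reads in N-FACS and none in the 6 allograft libraries, at least 17.5-fold lower in N-T0 (limma-voom adjusted p = 0.0024). *lncRNA:iab8*, which runs between *abd-A* and *Abd-B*, had 36, 20 and 21 reads in N-FACS and a single read in the allografts, in N-T3 B. *lncRNA:iab4*, inside it on the other strand, had 22, 14 and 7 reads and then none. Both were called lower in both comparisons, and the reads of these overlapping transcripts may not be separable either.

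Of the features of ANT-C, only *bcd* had a positive fitted value, in N-T0, and it was not called. *bcd*, the maternal anterior determinant, had 6, 3 and 0 reads in N-FACS, 7, 3 and 21 in N-T0 and 1, 0 and 4 in N-T3, with log2 fold changes of 1.68 ± 1.31 in N-T0 (limma-voom adjusted p = 0.37) and -0.41 ± 1.26 in N-T3 (adjusted p = 0.82). Its highest library, N-T0 C, was also the highest N-T0 library in the summed ovary and eggshell markers, at 260.3 normalized counts beside 134.7 and 98.6, whose part was not tested. Of the cuticle genes between *lab* and *pb*, *Ccp84Ab* was called lower, with 93 reads in N-FACS, 2 in N-T0 and 7 in N-T3, and the others had at most 15 reads in a group and were not called. The *Ccp84A* genes are close copies of each other, so their reads are uncertain. Of a list of 7 other genes of the complexes (*ftz*, *Ama*, *bcd*, *zen*, *zen2*, *lncRNA:bxd* and *lncRNA:iab8*), 5 were tested and 4 called lower in each comparison. The shares over all features were 15.5% in N-T0 and 17.8% in N-T3. Without N-T0 A or N-T0 B the list count in N-T0 was 3. *zen* and *zen2* are not listed in the tables. With single libraries left out, chosen after seeing the data, the count of features called lower inside ANT-C ranged from 9 to 11 in N-T0 and from 10 to 12 in N-T3.

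**Figure D4:**
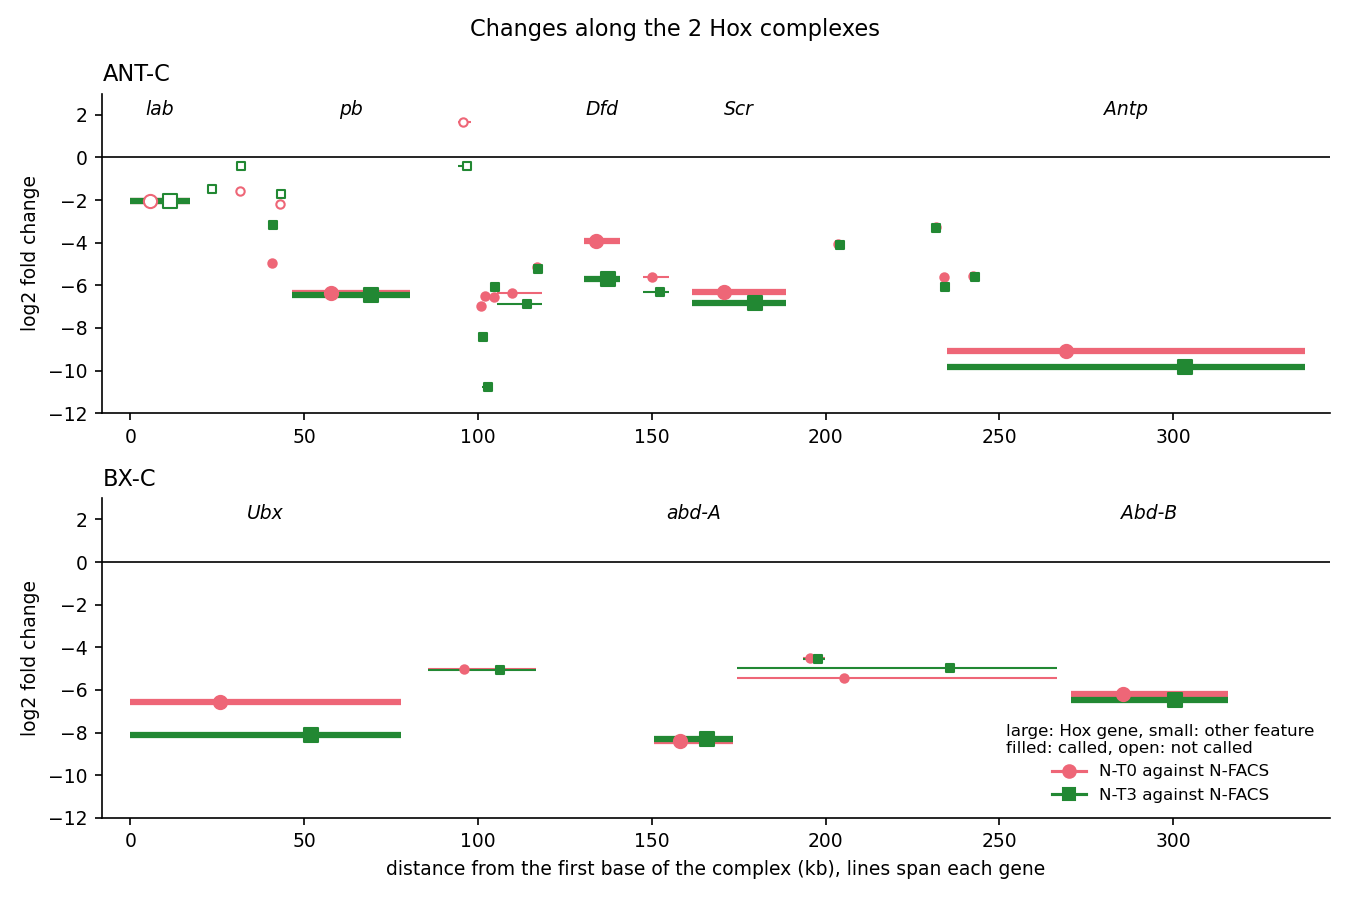
Log2 fold change against N-FACS of every listed feature along ANT-C and BX-C, by distance in kb from the first base of each complex, with a line spanning each gene. Large symbols are the 8 Hox genes and small ones the other features, filled where called. Inside BX-C all features lie between -4 and -9, and inside ANT-C the open symbols lie near *lab* and at *bcd*. Fitted values of features with no read in a group depend on the prior count.

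Partners and regulators of the Hox genes were followed in lists. The first held *exd* and *hth*, the homeodomain cofactors that bind DNA with Hox proteins, *tsh* and *tio*, zinc-finger factors of the trunk, and *hb*, a gap gene that sets Hox domains. In N-T0 3 of the 5 were called lower and in N-T3 all 5, or 4 without N-T3 A, beside 15.5% and 17.8% of all features. *tsh* fell as far as the Hox genes, from 3187, 2826 and 2609 reads in N-FACS to 27, 9 and 37 in N-T0 and 7, 18 and 3 in N-T3, with log2 fold changes of -7.20 ± 0.59 (limma-voom adjusted p = 0.00012) and -8.33 ± 0.57 (adjusted p = 9.9e-06). *tio* had log2 fold changes of -5.85 ± 0.64 and -4.90 ± 0.54 and was called lower in both. The cofactors fell less. *hth* was called lower in both, at -2.23 ± 0.43 in N-T0 (limma-voom adjusted p = 0.0043) and -1.0 ± 0.12 in N-T3 (adjusted p = 0.00015). *exd*, at -0.29 ± 0.16 in N-T0, was called only in N-T3, at -0.56 ± 0.11 (limma-voom adjusted p = 0.002). *exd* kept 2349 to 5530 reads in every allograft library.

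Factors of the brain in front of the Hox domains did not move as a block. Of 12 such genes, 8 were called lower and 2 higher in each comparison, where 15.5% of all features were lower and 13.1% higher in N-T0 and 17.8% and 17.3% in N-T3. *ems*, a head gap gene, fell from 1105, 1529 and 901 reads in N-FACS to 4, 1 and 11 in N-T0 and 1, 0 and 0 in N-T3 (log2 fold changes of -8.29 and -10.45), and the eye field gene *toy* had log2 fold changes of -1.80 ± 0.42 in N-T0 and -6.98 ± 0.56 in N-T3. *Optix*, which marks a region of the optic lobe primordium, rose by 0.72 ± 0.18 in N-T0 (limma-voom adjusted p = 0.015) and by 0.55 ± 0.19 in N-T3 (adjusted p = 0.042). *tll*, a brain and optic lobe factor, had 3603 to 5488 reads in N-FACS and 1409 to 6073 in the allografts, with log2 fold changes of -0.22 ± 0.19 and -0.02 ± 0.14 that did not pass the test. The count called higher was 1 without N-FACS B or N-FACS C in both comparisons and without N-T3 B or N-T3 C in N-T3.

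The Polycomb and Trithorax groups had far smaller fold changes. Of 19 Polycomb group genes, 5 were called lower in N-T0 and 6 in N-T3, where 15.5% and 17.8% of all features were, and none higher, with median log2 fold changes of -0.34 and -0.26. The most reduced were *Su(z)2* in N-T0, at -1.20 ± 0.26, and *ph-p*, at -0.97 ± 0.24 in N-T0 and -1.12 ± 0.13 in N-T3. *Pc*, which binds methylated histone H3, and *E(z)*, the histone methyltransferase, were not called, with values of 0.32 and 0.21 in N-T0. The N-T0 count was 1 without N-FACS A, 2 without N-FACS B, and 3 without N-FACS C or N-T0 C. Of the 11 Trithorax group genes tested, 5 were called lower and 1 higher in N-T0, and 4 lower and 1 higher in N-T3, beside the same shares. The gene that rose was *ash2*, at 0.60 ± 0.15 and 0.92 ± 0.10, and *trx* itself was not called (-0.10 ± 0.19 and 0.18 ± 0.15). In N-T0 the lower calls were 1 without N-FACS A and 2 without N-FACS B or N-FACS C, and the higher call was lost without N-FACS A, N-FACS C or N-T0 A.

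In the abdominal nerve cord *abd-A* is known to trigger the death of neural stem cells through *rpr*, *grim* and *skl*, cell death genes that block caspase inhibitors. These 3 were called lower in both comparisons, where 15.5% of all features were in N-T0 and 17.8% in N-T3. A link between their fall and that of *abd-A* was not tested. *rpr* fell from 302, 244 and 234 reads in N-FACS to 20, 12 and 11 in N-T0 and 9, 31 and 16 in N-T3, with log2 fold changes of -4.08 ± 0.44 (limma-voom adjusted p = 0.00028) and -3.78 ± 0.44 (adjusted p = 0.00012). *hid*, of the same gene cluster, was not called in N-T0 (-0.30 ± 0.62), and its rise of 1.04 ± 0.38 in N-T3 was lost without any 1 of the 6 libraries. *grh*, the stem cell factor that acts with *abd-A* there, was too abundant for its reads to be recovered.

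Neuron markers fell in both comparisons. All 10 neuron markers were called lower in both comparisons, where 15.5% of all features were in N-T0 and 17.8% in N-T3. The markers had median log2 fold changes of -6.53 in N-T0 and -7.62 in N-T3, beside the Hox medians of -6.34 and -6.64. Their summed level was 12551.3 to 16307.3 normalized counts in N-FACS, 243.6 to 983.1 in N-T0 and 555.8 to 752.1 in N-T3, and no neuron marker was at 0 in a group. *brp*, a protein of the synapse, had 1811, 1914 and 1455 reads in N-FACS, 35, 11 and 8 in N-T0 and 4, 14 and 3 in N-T3. *elav*, the pan-neuronal RNA-binding protein, fell less, with log2 fold changes of -3.43 ± 0.41 and -2.78 ± 0.17. The neuron markers and the Hox genes were measured in the same bulk RNA, and the part of neurons in the Hox result was not tested.

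Of the 6 glia markers with reads, 4 were called lower in N-T0 and 5 in N-T3, where 15.5% and 17.8% of all features were. Without N-T3 B or N-T3 C 3 of the markers were called lower in N-T3, and *wrapper* was at 0 in N-T0. Their summed level, most of it from *nrv2*, was 5387.5 to 6059.1 in N-FACS, 3837.0 to 7377.1 in N-T0 and 3332.0 to 3745.1 in N-T3. The defining glial factor *repo* had 729, 791 and 230 reads in N-FACS and at most 8 in an allograft library.

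Neural stem cell markers were present in every library. The 5 neural stem cell markers with reads summed to 23320.4 to 25430.1 normalized counts in N-FACS, 13892.1 to 20990.3 in N-T0 and 20213.7 to 22275.2 in N-T3. *dpn*, the defining factor of these cells, had log2 fold changes of -0.22 ± 0.24 and -0.14 ± 0.11 and was not called. In each comparison 2 of the 5 were called lower, where 15.5% of all features were in N-T0 and 17.8% in N-T3. *ase* was among the 2 in both, at -2.98 ± 0.20 in N-T0 and -4.14 ± 0.22 in N-T3. Without N-FACS A the N-T0 count was 1, and without N-FACS B, N-FACS C, N-T3 A or N-T3 B the N-T3 count was 1.

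Hemocyte markers went the other way. In both comparisons 6 of 7 were called higher and none lower, where 13.1% of all features were higher in N-T0 and 17.3% in N-T3. *NimC1*, a phagocytic receptor, rose by 5.87 ± 0.65 and 5.25 ± 0.85. The 7 markers summed to 835.4 to 974.8 in N-FACS, 2404.4 to 3680.4 in N-T0 and 1516.4 to 2254.5 in N-T3, with none at 0. Without N-FACS C 1 of the 7 was called lower in each comparison. All 5 adult fat body markers with reads were called higher in N-T0, at a summed level of 3093.0 to 4723.5 beside 546.2 to 686.4 in N-FACS and 2017.7 to 2566.2 in N-T3. In N-T3 2 of the 5 were called higher, or 5 without N-T3 B and 1 without any other single library of N-FACS or N-T3. Ovary and eggshell markers summed to 25.5 to 40.9 in N-FACS, 98.6 to 260.3 in N-T0 and 69.2 to 144.9 in N-T3. Adult gut markers summed to 48.8 to 95.5, 127.5 to 626.3 and 96.6 to 124.0 in the same order, with *Amy-p* at 0 in N-FACS. Markers of trachea and epidermis summed to 135.6 to 216.0, 183.7 to 1445.7 and 351.8 to 563.7, and muscle markers to 177.9 to 330.9, 95.6 to 196.6 and 83.8 to 146.5. Of the 8 muscle markers *sls* and *bt* were called lower in N-T0, with log2 fold changes of -1.23 and -2.38, and *wupA* higher, at 3.17. The median log2 fold change over the 8 was 1.80 in N-T0 and 0.41 in N-T3, opposite in sign to the change of the sum. The part of host tissue in the few Hox reads of the allografts was not tested.

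**Figure D5:**
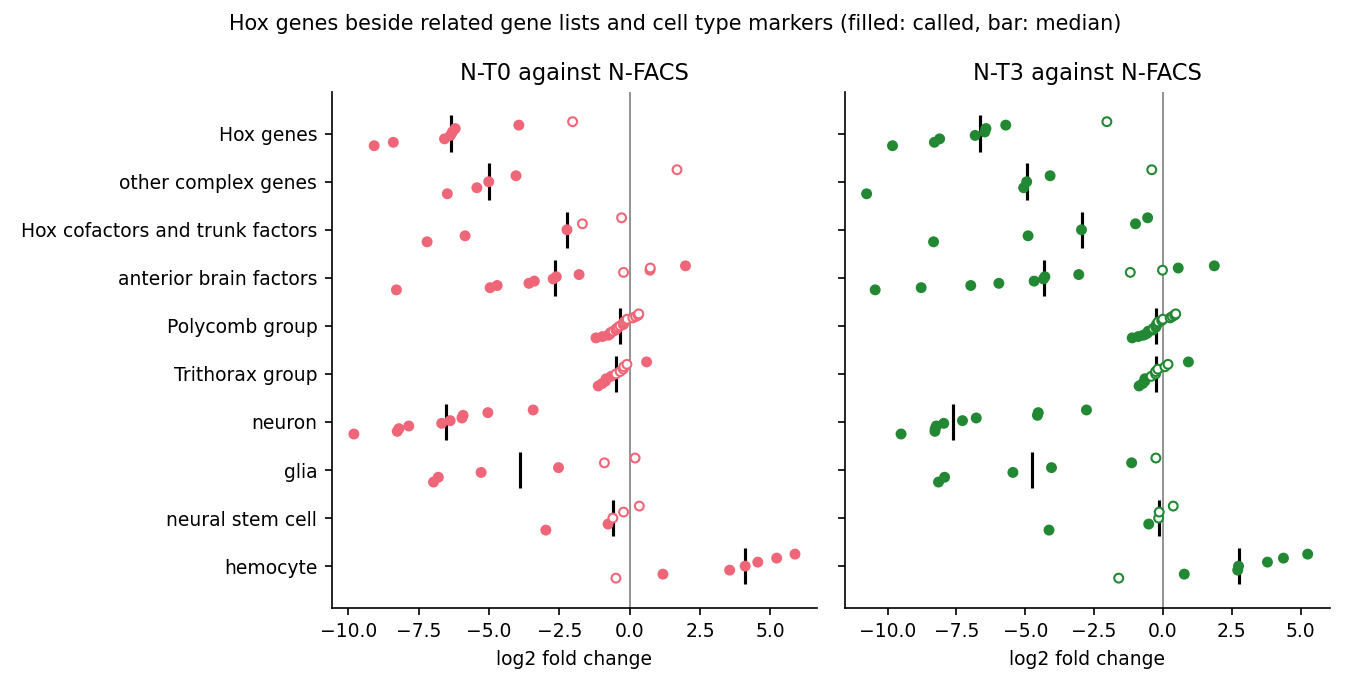
Log2 fold change of each tested gene, by list, in N-T0 (left) and N-T3 (right) against N-FACS, filled where called, with a bar at the median of each list. The Hox genes and the neuron markers lie mostly below -5, the Polycomb and Trithorax groups lie near 0, the neural stem cell markers other than *ase* lie within 1 of 0, and 6 of 7 hemocyte markers lie above it. Fitted values of genes with no read in a group depend on the prior count.

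The genes whose profile over the 9 libraries was most like that of a Hox gene were found by the root mean square difference of centred log2(normalized count + 1), among the 7647 or 7648 other features with a symbol and a mean of at least 30. This was done for the 6 Hox genes with a mean of at least 10, which leaves out *Dfd* and *lab*. For *Antp* the nearest were *ems* (0.46), *abd-A* (0.59) and *Dh31*, a neuropeptide (0.60), and for *abd-A* they were *Dh31* (0.44), *Antp* (0.59) and *dpr13* (0.64). *Antp* and *abd-A*, of different complexes, were thus each among the nearest of the other. Of the Hox genes only *Antp*, *Ubx* and *abd-A* reached the mean of 30, so no other Hox gene could be named as nearest. For *Ubx* the nearest were *dpr4* (0.47), *Ptx1* (0.52) and *CG2993* (0.61), and for *Abd-B* they were *kek3* (0.45), *Pkc53E* (0.50) and *CG14312* (0.51). *Scr* was nearest to *beat-Vc* (0.37), *CG5890* and *CG31760* (both 0.41), and *pb* to *rad* (0.39), *PVRAP* (0.43) and *Nmdar1*, a glutamate receptor subunit (0.44). *dpr4*, *dpr13*, *kek3* and *beat-Vc* encode cell surface proteins of the immunoglobulin or leucine-rich repeat kind. The measure follows the contrast between N-FACS and the allografts, and depth and N-FACS C are shared by all of these genes.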

How the data were processed

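The authors sequenced RNA of 9 polyA-selected libraries, 3 each of N-FACS, N-T0 and N-T3. Per the study's methods, STAR was run against BDGP6.32 and featureCounts gave the gene counts, and the authors compared the groups with DESeq2. The submitters' processing notes also name FastQC 0.11.9. Each of the 3 deposited tables gives per feature a base mean, a score formed by the authors as the mean over 6 libraries of counts divided by size factors. The fold changes, standard errors, test statistics and p-values of the authors were not used.

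A base mean is a sum of whole reads, each worth a fixed step in its library. The steps were found from recurrent differences among low base means and refined by least squares, and the reads of a feature in all libraries were then solved together by lattice reduction. Base means under 2.6 matched a single sum of whole reads in 945 of 945, 1053 of 1053 and 887 of 887 cases, and libraries present in 2 tables had the same reads in each. A library belongs to the group that its tables share. Reads were accepted for 12996 of 13215 features (98.3%), each sum giving the printed base mean within its last digit, and 219 abundant features were left out.

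The reads of the 6 libraries of a comparison were fitted with limma 3.58.1 (voom, prior count 0.5) in R 4.3.3, with the size factors implied by the steps. Models of raw counts were not used, since the deposited columns used here hold no counts. Levels over 9 libraries used 1 set of size factors. Ratios of summed reads have exact (Clopper-Pearson) 95% intervals for counting error only, and a group at 0 was set to a floor of 3 reads. Exon lengths and coordinates come from the Ensembl annotation of BDGP6.54, a later release than that of the authors. Recovery and fit were tested on simulated data, where 12574 of 12605 features were accepted and all 12574 equalled the simulated reads. That run started from steps next to the true ones, so it did not test how the steps were found. Python 3.11.15, numpy 2.4.6, scipy 1.17.1 and pandas 2.3.3 were used.

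The 8 genes, 6 gene lists and 9 marker lists were chosen with earlier results of these data known. The text names the 8 Hox genes, called list members at the extremes of their list or on which a sentence turns, and the 3 nearest features of a Hox gene. The features between the Hox genes were named after their values were seen. Values of 1 further list member are not reported here.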

Additional observations from a re-analysis of the deposited data

How the results depend on the processing

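The count of Hox genes called lower was 7 in N-T0 and in N-T3 against N-FACS under scaling by total reads, limma-trend with pseudocounts of 0.5 and 2, sample quality weights, a test against a log2 fold change of 0.5, a fit of all 9 libraries, a log2 fold change of at least 1 and an adjusted p of at most 0.01. With a base mean of at least 30 it was 5 of 5 tested in both, since *lab*, *pb* and *Dfd* fall below that level. With single libraries left out, where a group of 2 remained, it was 7 throughout in N-T0 and 6 to 7 in N-T3, where *Ubx* was lost without N-T3 A. *Ubx* in N-T3 against N-T0 was called under none of the settings that could test it. For N-T3 against N-T0 over all features, the calls were 0 as reported, 2 lower and 1 higher or 2 lower with limma-trend, 114 lower and 44 higher with sample quality weights, and 3 lower and 4 higher without N-T0 C. The log2 ratio of the summed Hox level was -6.97 in N-T0 and -8.54 in N-T3, and -6.87 and -8.45 with reads per 1000000 recovered reads. No paired analysis was possible because the recovered reads carry no replicate number. A fit without a read minimum was not run, since no feature under 10 reads is listed. In the allografts, depth allows no statement about which Hox genes remain: the counts there were 0 to 5 reads.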
